A study of Mus musculus with 9 samples.

Results

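Cluster I5 is one of the 8 clusters of cholinergic interneurons that the authors drew among adult mouse spinal cord nuclei. Its members were taken by the authors' cluster label alone, with no measured value used here. They number 584 of the 16042 cholinergic nuclei, which is 584 of the 5375 nuclei in clusters I1 to I8. The label was given to 34231 nuclei in all, of which those that are not cholinergic have no expression values in the matrix used here.

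The study sorted GFP+/DRAQ5+ nuclei from *Chat*-IRES-Cre::Sun1-sfGFP mice, heterozygous for both alleles (Chat-iCre:+/wt; SUN-SfGFP:+/wt) and 8 weeks old, and sequenced their RNA on the 10x Chromium platform. The Cre allele is driven by *Chat* and the mark is permanent, so a sorted nucleus may have expressed *Chat* only during development, and Cre can also be active without it. There were 3 pools of 4 mice, and each pool was split into cervical, thoracic and lumbar/sacral cord, which gave 9 libraries. The pool of replicate 1 mixed the sexes, that of replicate 2 was male and that of replicate 3 female. Genotype, age and sort were shared by all groups. Libraries with 1 replicate number came from the same mice, and p-values between regions measure the spread between libraries of these pools, not between single animals.

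Cholinergic interneurons near the central canal, called partition cells or V0c neurons, arise from progenitors that express *Dbx1*. Their axons end on MNs in large synapses known as C-boutons, where acetylcholine acting through muscarinic receptors raises MN excitability. Acetylcholine is made by choline acetyltransferase (*Chat*), and the choline for it is taken up by the transporter encoded by *Slc5a7*. Many other spinal cholinergic interneurons also carry genes for GABA release.

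Levels are given as corrected counts per 1000000 (CPM): the values of all nuclei of a cluster in a library were summed and scaled to 1000000. I5 held 115, 19 and 65 nuclei in cervical replicates 1, 2 and 3, 47, 104 and 57 in the thoracic replicates, and 71, 50 and 56 in the lumbar/sacral replicates. The median corrected total per nucleus in a library lay between 4712 and 16127, and that of I5 nuclei was 7601. Hox genes, which keep a record of position along the cord, went against the labels of 2 libraries of the male pool. Over all cholinergic nuclei, *Hoxc5* stood at 25.4, 73.3 and 22.5 CPM in the libraries labelled cervical replicate 1, 2 and 3, and at 85.3, 13.9 and 84.2 CPM in those labelled thoracic. The same 2 libraries were apart for *Hoxa9*, with 9.69 CPM in the library labelled cervical replicate 2 and 0.507 CPM in that labelled thoracic replicate 2. No library was moved to another group, and counts and shares by region are also given without these 2. *Malat1*, a nuclear RNA, also split the libraries, with 82976 to 124410.0 CPM in 5 of them and 30335 to 34023 CPM in the other 4, which were all of replicate 1 and cervical replicate 3. Across the 9 libraries, 33 barcodes of cholinergic nuclei occurred in more than 1 library.

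The marker genes given for I5, *Tox*, *Mpped2* and *Pax2*, were all present, but only *Tox* separated it from its closest neighbour, I6. *Tox*, which encodes an HMG-box transcription factor, was at 280.4, 221 and 269 CPM in the cervical libraries, 400.3, 146 and 252 CPM in the thoracic and 356, 274 and 260.1 CPM in the lumbar/sacral. In I6 it ran from 3.38 to 81.8 CPM and in the sum of I1 to I4 from 3.68 to 21.6 CPM. No library of I6 or of I1 to I4 reached the lowest I5 library. Among the 21 cholinergic clusters, *Tox* had a higher mean only in visceral cluster V6. It averaged 325 ± 124 CPM there (SD over 8 libraries) and 273 ± 73.0 CPM in I5 (SD over 9 libraries), and the libraries of these neighbours overlapped. *Mpped2*, a phosphodiesterase gene, averaged 347 ± 68.3 CPM in I5, between 394 ± 86.9 CPM in I6 and 198 ± 28.2 CPM in I3, with the highest mean in I8 at 766 ± 171 CPM (n = 8). *Pax2*, a transcription factor gene of inhibitory and cholinergic interneurons, averaged 107 ± 17.4 CPM in I5 and 98.3 ± 20.2 CPM in I6, below the 186 ± 30.3 CPM of I2 and the higher values of I1, I3, I4 and I7.

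**Figure D1:**
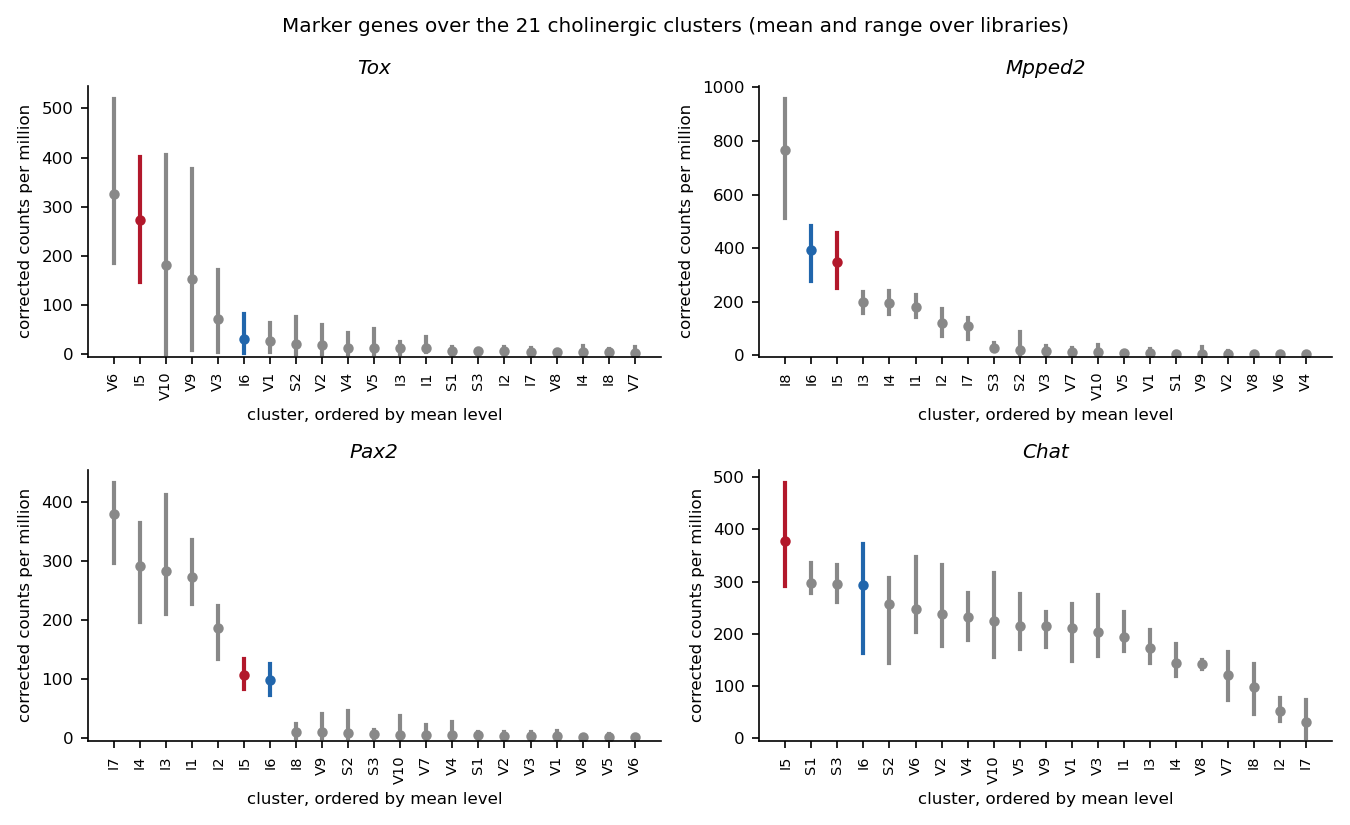
Levels of *Tox*, *Mpped2*, *Pax2* and *Chat* in CPM of corrected counts over the 21 cholinergic clusters, each ordered by its mean; the point is the mean over libraries and the line runs from the lowest to the highest library. I5 (red) stands apart from I6 (blue) in *Tox*, and has the highest mean of *Chat*.

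Transcription factor genes of the embryonic V0 lineage gave few counts in these adult nuclei. *Evx1* and *Evx2* had no count in 584 I5 nuclei. By counting error alone this allows up to 0.514% of nuclei with a count. It sets no limit on nuclei that express the gene. *Lhx1* was found in 0.585 ± 1.75% of I5 nuclei and *Lhx5* in 6.87 ± 3.89% (unweighted means of library percentages, SD over 9 libraries). For *Lhx1* the SD exceeded the mean, as happens where most libraries have no count, so the value gives no detection rate for I5. Being unweighted, it also counts a library of 19 nuclei as much as one of 115. With every nucleus thinned to the same corrected total, the shares were 0% for *Lhx1* and 2.5 ± 2.0% for *Lhx5*.

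I5 had the highest *Chat* level of all 21 clusters, although its range met those of its neighbours in that order. *Chat* was at 340.1, 471 and 374 CPM in the cervical libraries, 489, 342 and 368 CPM in the thoracic and 371, 347 and 291 CPM in the lumbar/sacral. The next clusters were skeletal MN clusters S1 at 298 ± 18.5 CPM and S3 at 295 ± 29.6 CPM, and then I6 at 294 ± 76.8 CPM. I1 to I4 lay at 129 to 179 CPM, below all I5 libraries. *Slc5a7* was at 333 to 500.4 CPM in I5, 206 to 567 CPM in I6 and 122 to 179.6 CPM in I1 to I4. The vesicular transporter gene *Slc18a3* was not among the features used here.

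The nuclei of I5 were compared with those of I6 within each library, as the cluster pair with the fewest genes counted among those compared. The authors drew both clusters from the same nuclei, so the differences are a description and carry no test. Differences are given as the mean within-library difference of log2(CPM + 5) ± SD over 9 libraries. A gene was counted where its mean within-library difference was at least 1 on the log2 scale and all 9 libraries went the same way. Genes entered with 10 CPM or more in 3 or more sums. Of 11329 such genes, 198 (1.75%) were higher in I5 and 226 (1.99%) lower, and the median difference of all genes was 0.06. This compares with 1038 of 11069 genes (9.38%) between I5 and I1 to I4, 1112 of 10854 (10.2%; 6.03% higher, 4.21% lower) between I5 and I7, and 1227 of 11674 (10.5%; 5.89% higher, 4.62% lower) between I5 and I8. The pairs differ in how many nuclei stand behind a sum, which also moves these counts. Of 8 genes that report on RNA quality the mitochondrial *mt-Nd1* was lower in I5 than in I6, by 1.07 ± 0.703, and the median of the 8 was -0.77, whose part in the other differences was not tested.

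Of the 12 genes with the largest difference in favour of I5 over I6, 4 encode receptors. *Chrm3*, the M3 muscarinic receptor, was at 926, 359 and 1176 CPM in the cervical libraries of I5, 592, 859 and 354 CPM in the thoracic and 658, 492 and 719 CPM in the lumbar/sacral, against 10.1 to 144 CPM in I6. The difference was 3.72 ± 1.22 on the log2 scale. *Npsr1*, the receptor of neuropeptide S, was higher by 4.18 ± 1.98, and its wide spread came from I5, which ran from 13.2 to 443 CPM while I6 stayed at 0 to 5.33 CPM. *Ror2*, a receptor of Wnt5a, was at 107 to 214 CPM in I5 and 0 to 58.8 CPM in I6, a difference of 3.41 ± 1.42. *Lrp2*, the endocytic receptor megalin, differed by 3.30 ± 0.53, with 49.4 to 127 CPM in I5 and 0 to 11.7 CPM in I6.

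The other genes of that group were *Tox* at 3.35 ± 1.13, the oxysterol hydroxylase gene *Cyp39a1* at 3.32 ± 0.59, *Fam196b* at 3.36 ± 0.35 and the collagen genes *Col24a1* at 2.89 ± 0.65 and *Col25a1* at 2.86 ± 0.53. *Col25a1*, a membrane collagen of neurons, was the most abundant of them, at 684 to 2128 CPM in I5 and 52.9 to 350.5 CPM in I6. The remaining 3 were predicted genes, of which *Gm12649* had the largest difference of all, 4.41 ± 0.89, and *Gm13912* a difference of 3.71 ± 1.56.

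Genes lower in I5 than in I6 were led by *Ankfn1*, which was at 5.47 to 82.3 CPM in I5 and 420.5 to 946 CPM in I6, a difference of -4.70 ± 0.74. *Hs3st4*, a heparan sulfate sulfotransferase, differed by -3.63 ± 0.66, and *Arpp21*, a cAMP-regulated phosphoprotein, by -3.60 ± 0.78. The secreted protein gene *Fam19a1* differed by -4.04 ± 0.97. *Galntl6*, a glycosyltransferase gene, stood at 119 ± 70.5 CPM in I5 and 1206 ± 405 CPM in I6. Ion channels and glutamate receptors were among the 12, with *Kcnn3*, a small-conductance potassium channel, at -3.10 ± 0.90, the proton-gated channel *Asic2* at -3.08 ± 1.23, the kainate receptor *Grik3* at -3.16 ± 0.68 and the metabotropic receptor *Grm8* at -2.98 ± 0.75. *Baiap3*, *Rasgrf2* and *Nell1* completed the group, at -3.33 ± 1.15, -3.28 ± 0.55 and -2.97 ± 0.91.

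**Figure D2:**
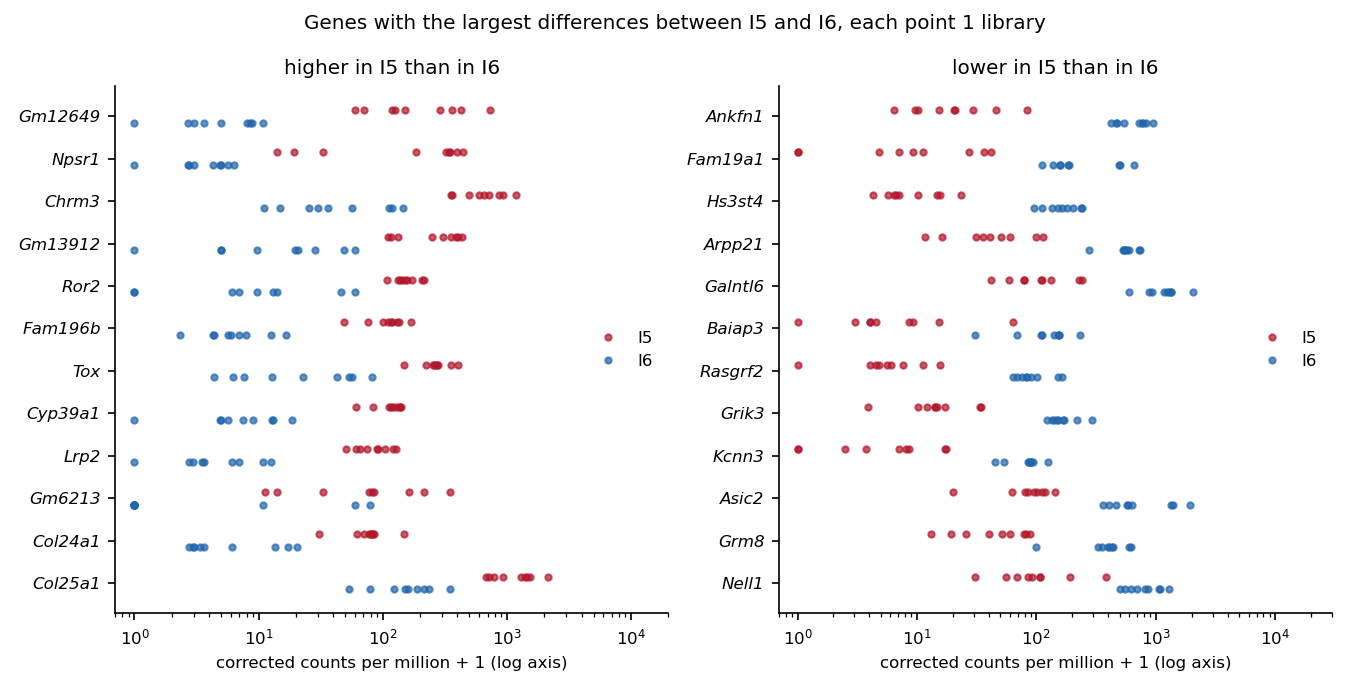
The 12 genes with the largest mean difference in each direction between I5 (red) and I6 (blue), with 1 point per library; the x axis gives CPM of corrected counts plus 1 on a log axis. For *Tox*, *Chrm3* and *Ankfn1* no I5 library overlaps an I6 library, while *Npsr1* in I5 spreads from 13.2 to 443.

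Channels and receptors were then read list by list. For every list against I6, the shares over all genes were 1.75% higher in I5 and 1.99% lower. Of 33 potassium channel genes tested, 3 were higher in I5 and 9 lower, with a median difference of -0.43 against 0.06 over all genes. The 3 were *Kcnh5* at 2.39 ± 1.38, *Kcna1* at 1.19 ± 0.45 and *Kcnab1* at 1.09 ± 0.34. The 9 included *Kcnd3*, an A-type channel, at -2.03 ± 0.64, *Kcnh7* at -2.13 ± 0.39, the G-protein-gated *Kcnj6* at -1.90 ± 0.72 and the M-current subunit *Kcnq3* at -1.26 ± 0.54. Of 20 sodium, calcium and HCN channel genes none was higher and 2 were lower, *Cacna1i* and *Cacna2d2*, at -1.55 ± 0.44 and -1.47 ± 0.81.

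The kainate receptor genes that met the rule were all lower in I5. Of 18 ionotropic glutamate receptor genes none was higher and 4 were lower, namely *Grik1* at -2.87 ± 0.86, *Grik3*, *Grik4* at -1.30 ± 0.44 and the delta receptor *Grid1* at -1.12 ± 0.29. Among 6 metabotropic receptor genes *Grm3* was higher, by 1.26 ± 0.54, and *Grm7* and *Grm8* were lower. The aminergic receptor genes that met the rule were all lower in I5. They were *Htr4* at -2.68 ± 0.61 and *Htr2c* at -1.35 ± 0.66 among 7 serotonin receptor genes, and *Drd2* at -1.54 ± 0.87 and *Adra1a* at -1.01 ± 0.47 among 5 adrenergic and dopamine receptor genes.

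Single receptor genes for acetylcholine and glycine were higher in I5. *Chrm3* was 1 of 2 muscarinic receptor genes tested, *Chrna7*, the alpha7 nicotinic subunit, was 1 of 2 nicotinic genes and was higher by 1.80 ± 0.64, and *Glra3*, a glycine receptor subunit, was 1 of 16 GABA-A and glycine receptor genes and was higher by 1.47 ± 0.87. In the cholinergic list 3 of 8 genes were higher in I5 and none was lower. They were *Prima1*, the membrane anchor of acetylcholinesterase, at 1.16 ± 0.41, the butyrylcholinesterase gene *Bche* at 1.37 ± 0.71 and the choline transporter-like gene *Slc44a5* at 1.02 ± 0.53. *Prima1* was abundant, at 522 CPM in I5 and 235 CPM in I6, whereas *Bche* reached only 12.4 CPM in I5. *Chat*, *Slc5a7* and *Ache* did not meet the rule.

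A second transmitter gene marked I6 and was close to 0 in I5. *Slc17a6*, the vesicular glutamate transporter VGLUT2, was at 4.77, 0 and 3.04 CPM in the cervical libraries of I5, 0, 3.05 and 4.07 CPM in the thoracic and 5.79, 8.21 and 0 CPM in the lumbar/sacral. I6 had 16.4 to 62.3 CPM, above all I5 libraries, and I1 to I4 had 1.14 to 12.7 CPM. A corrected count was found in 2.42 ± 2.05% of I5 nuclei, 27.1 ± 3.17% of I6 nuclei and 3.74 ± 1.19% of I1 to I4 nuclei (SD over 9 libraries), at median totals of 7601, 7489 and 6288, so the I5 share did not exceed that of nuclei with little of the transcript. With every nucleus thinned to 3200 corrected counts, which left out none, the shares were 1.10, 11.02 and 2.00%.

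Genes of secreted signals and their receptors differed too. Of 16 Wnt and planar polarity genes *Ror1* was higher in I5 by 2.86 ± 1.29, *Ror2* by 3.41 ± 1.42 and the low *Fzd4* by 1.06 ± 0.54, and none was lower. Among 29 axon guidance genes 4 were higher and 1 lower, with a median of 0.30 for the list. *Slit2* was higher by 1.65 ± 0.30, *Slit3* by 1.71 ± 0.38, their receptor gene *Robo2* by 1.02 ± 0.23 and *Efnb2* by 2.06 ± 0.69, while the netrin receptor gene *Unc5c* differed by -1.18 ± 0.54. In the retinoid list *Rxrg*, a retinoid X receptor, was higher by 1.79 ± 0.50 and *Aldh1a1*, a retinaldehyde dehydrogenase, was at 19.3 to 118 CPM in I5 and 62.9 to 421 CPM in I6, lower in I5 in all 9 libraries by 1.87 ± 0.61. Of 21 cadherins 3 were higher and 5 lower, with *Cdh6* at 1.78 ± 0.18 and *Cdh13* at 1.94 ± 0.61 at one end and *Pcdh10* at -2.81 ± 0.66 and *Cdh7* at -1.78 ± 0.53 at the other.

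The peptide gene *Cartpt* was at 230.3, 635 and 100.4 CPM in the cervical libraries of I5, 259.9, 731 and 464 CPM in the thoracic and 133, 596 and 410.0 CPM in the lumbar/sacral. It was the only 1 of 8 neuropeptide genes that was higher than in I6, by 1.93 ± 0.57. In each labelled region its level in I5 was highest in the male pool, but none of 4 neuropeptide genes tested passed between the male and female pools. The male libraries include both of those whose Hox levels go against their labels. Of 30 homeobox and other transcription factor genes 4 were higher in I5 and none was lower. *Tshz2* differed by 2.82 ± 0.72, *Tox3* by 2.19 ± 0.57, *Maf* by 2.28 ± 0.75 and *Ebf1* by 1.24 ± 0.12. *Nfia* was higher by 1.75 ± 0.54, and *Zfhx3* and *Pou2f2* were lower, by 1.02 ± 0.21 and 1.02 ± 0.36, among 10 genes linked to birth time.

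Against I1 to I4, which hold 3758 interneuron nuclei, 527 of 11069 genes (4.76%) were higher in I5 and 511 (4.62%) lower, in the same description. The share of higher genes among those counted was 50.8% with scaling to the total and 40.2% with scaling by the median of ratios (409 higher, 609 lower), which moved the median difference of all genes by 0.17. Under the main scaling that median was 0.16. *Col25a1* led, at 1216 ± 477 CPM in I5 and 7.33 ± 4.39 CPM in I1 to I4, a difference of 6.61 ± 0.68. *Kitl*, the KIT ligand, differed by 5.61 ± 0.63 and *Ror1* by 5.60 ± 0.52. *Ldb2*, a cofactor of LIM-homeodomain proteins, was at 1148 ± 203 against 31.3 ± 12.9 CPM, and *Cdh6* at 811 ± 111 against 27.2 ± 9.18 CPM. *Sntg2*, *Gpc4* and *Rxrg* were also in this group, at 5.26 ± 0.40, 4.77 ± 0.40 and 4.65 ± 0.23.

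Genes of inhibitory and nitrergic neurons were among those that I1 to I4 held and I5 nearly lacked. *Nos1*, neuronal nitric oxide synthase, was at 0 to 12.2 CPM in I5 and 563 to 676 CPM in I1 to I4, a difference of -5.66 ± 0.58. Of 8 genes of GABA and glycine transmission 6 were lower in I5, where 4.62% of all genes were lower. They included the GABA-synthesising *Gad1* and *Gad2* at -3.06 ± 0.58 and -3.99 ± 0.55. The vesicular transporter gene *Slc32a1*, at -2.15 ± 0.58, and the glycine transporter gene *Slc6a5*, at -3.04 ± 0.88, were also lower. The largest difference was that of *Adarb2*, at 3.79 to 80.0 CPM in I5 and 4052 to 6094 CPM in I1 to I4. *Shisa9*, *Galntl6*, *Ebf2*, *Nxph1*, *Dach1*, *Nxph2* and *Otof* were also named by the rule, with differences between -6.05 and -5.07.

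*Chat* was higher in I5 than in I1 to I4 by 1.30 ± 0.25 and *Slc5a7* by 1.45 ± 0.25, and 5 of 8 cholinergic genes were higher and none lower. Over all genes 4.76% were higher and 4.62% lower, with a median difference of 0.16. *Prima1* differed by 3.90 ± 0.34. Potassium channels were again mostly lower, with 18 of 33 lower and 2 higher, and a median of -1.06. The subunit gene *Kcnip4* was at 188 to 663 CPM in I5 and 7291 to 12160.0 CPM in I1 to I4. All 4 counted serotonin receptor genes were lower in I5 (*Htr1f*, *Htr2a*, *Htr2c* and *Htr4*, of 6 tested), while *Adra1a* and *Drd2* were higher, by 2.18 ± 0.56 and 1.26 ± 0.85. *Drd2* and *Adra1a* thus had levels in I5 between those of I1 to I4 and I6. Of 11 transcription factor genes linked to birth time in the cord 5 were higher in I5 and 3 lower, with a median of 0.91. Those of early-born, long-range neurons, *Zfhx3*, *Zfhx4*, *Onecut2* and *Onecut3*, were higher by 3.89 ± 0.54, 3.57 ± 0.43, 3.48 ± 0.45 and 2.02 ± 0.54. Of the late-born group, *Nfib* and *Neurod2* were lower, by 2.46 ± 0.50 and 1.97 ± 0.47, and *Nfia* was higher, by 1.14 ± 0.52. *Tcf4* was the third gene of the list that was lower, by 3.096 ± 0.171. Of 8 genes that report on RNA quality, 5 mitochondrial transcripts were lower in I5 than in I1 to I4, and what part this has in the other differences was not tested.

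Markers of MNs and of glia were counted in I5 as well. Beside the comparisons with I1 to I4 here, 4.76% of all genes were higher in I5 and 4.62% lower. The summed level of 10 skeletal MN markers was 483 to 769.9 CPM in I5 against 2112 to 3208 CPM in skeletal MNs, with 2 of the 10 at 0. Its median of 642 CPM in I5 was above the 559 CPM of I6, the 484 CPM of visceral MNs and the 413 CPM of I1 to I4, and of 7 such genes tested *Bcl6* and *Sv2b* were higher in I5 than in I1 to I4, by 1.95 ± 0.64 and 1.63 ± 0.33, and *Chodl* was lower, by 1.90 ± 0.48. The summed level of 7 visceral MN markers was 236 to 418 CPM against 1096 to 1674 CPM in visceral MNs, with none at 0. Its median of 298 CPM in I5 was below the 446 CPM of I6 and the 804 CPM of I1 to I4, and above the 90.3 CPM of skeletal MNs. *Sema5a* and *Fbn2* among them were higher in I5 than in I1 to I4, by 3.30 ± 0.83 and 1.25 ± 0.77, and *Nos1* and *Gpc3* lower. The 9 oligodendrocyte markers summed to 28.9 to 58.1 CPM, the 7 astrocyte markers to 34.6 to 120 CPM, the 6 microglia markers to 30.4 to 144 CPM and the 5 markers of ependymal and CSF-contacting cells to 0 to 36.6 CPM. Of the microglia markers 2 were at 0 in I5, as were 1 of 7 astrocyte markers and 1 of 4 markers of endothelial cells and pericytes.

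The split between I5 and I6 was also read nucleus by nucleus, as a description of nuclei that the authors had clustered on these genes. After thinning to 3200 counts, 89.7 ± 6.07% of I5 nuclei (SD over 9 libraries, lowest 79.0%, highest 96.4%) held more counts of the 12 genes high in I5 than of the 12 genes high in I6. For I6 nuclei that share was 1.24 ± 1.66%. Conversely, 7.39 ± 5.15% of I5 nuclei held more counts of the I6 genes. Both sets of 12 were chosen here for their difference between these same nuclei. A high share in I5 and a low share in I6 were thus built in and lend the split no support. Within I5, the genes whose counts varied most between nuclei of a library, beyond *Malat1*, were *Pcdh15* with a mean variance-to-mean ratio of 4.35, *Lrrtm4* with 4.20, *Asic2* with 4.15, *Sgcz* with 4.09 and *Opcml* with 4.04, where the median of 2979 genes was 1.01. That median is taken over genes of all levels. *Chrm3* and *Col25a1* had ratios of 2.82 each. Over libraries the ratio of *Pcdh15* ran from 1.78 to 8.37. That of *Asic2*, found in 11.8% of thinned I5 nuclei, ran from 0.833 to 11.98. In I6 the ratios of *Lrrtm4*, *Asic2*, *Sgcz* and *Opcml* were 5.30, 3.67, 3.74 and 2.47, so high variation in these genes was not particular to I5. *Pcdh15*, a cadherin of mechanosensory and neural adhesion, was found in 90.7% of thinned I5 nuclei and had a ratio of 1.67 in I6. Whether its spread in I5 lay between levels or between presence and absence was not tested.

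Where along the cord I5 lies was asked of its share of nuclei. Of the cholinergic nuclei, I5 made up 3.73 ± 1.06% in the cervical libraries (SD, n = 3), 4.17 ± 1.57% in the thoracic and 2.90 ± 0.209% in the lumbar/sacral, and no difference between the 3 regions passed (exact permutation test of the between-region sum of squares over 1680 assignments of the libraries, p = 0.457; the smallest p this design can give is 0.00357). Without the 2 libraries whose Hox levels go against their labels the same exact permutation test gave an unadjusted p = 0.0286, with a lumbar/sacral difference of -0.896 points from the mean of the other regions. As a share of interneuron nuclei, I5 was 13.6 ± 1.63% and 13.6 ± 2.22% in the cervical and thoracic libraries and 7.24 ± 0.964% in the lumbar/sacral. All 3 lumbar/sacral libraries, at 6.44, 6.97 and 8.31%, were below the 6 others, which ran from 11.4 to 15.9%. The lumbar/sacral mean differed from that of the other regions by -6.36 points. The exact permutation test across the 3 regions, which does not test that difference by itself, gave p = 0.0357 and an adjusted p of 0.107 over the 3 shares tested, and did not pass the correction. The exact permutation test gave p = 0.111 when libraries were permuted within replicates, which takes the shared mice into account. Without the same 2 libraries the difference was -6.24 points (exact permutation across the 3 regions, unadjusted p = 0.00952). This is the smallest p that the remaining libraries can give, and the 2 were left out after the data were seen. Of the nuclei of I5 and I6 together, I5 made up 51.6 ± 8.91, 49.1 ± 5.79 and 50.6 ± 4.89% in the 3 regions (exact permutation p = 0.896). The sort and the gate act on these shares, and a change in other interneurons moves the share of I5.

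**Figure D3:**
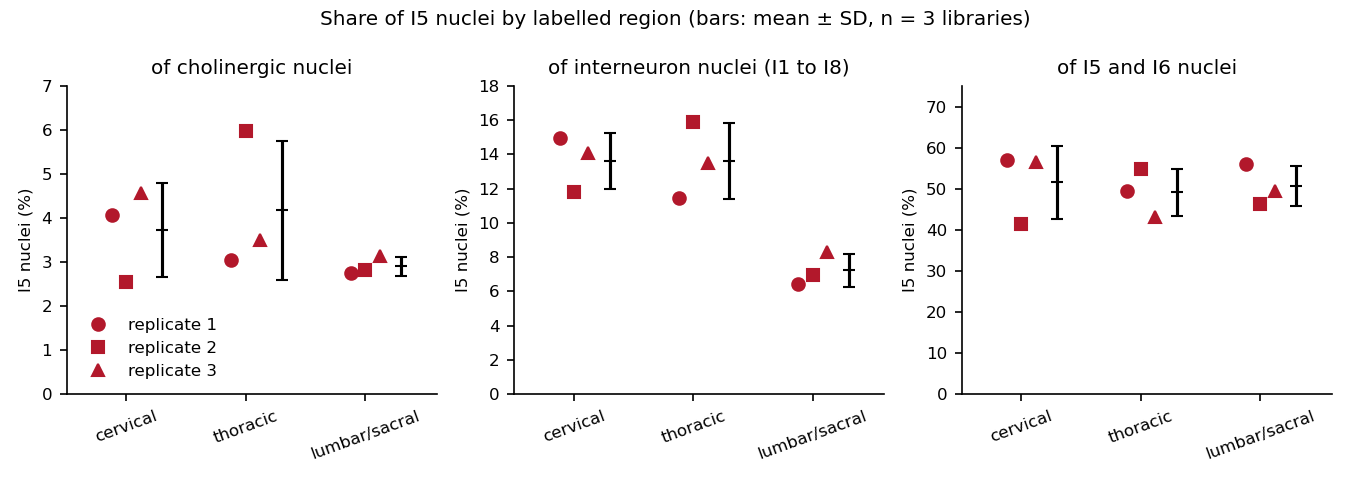
Share of I5 among cholinergic nuclei, among interneuron nuclei and among I5 and I6 nuclei, in percent, by labelled region; points are libraries with the shape giving the replicate, and bars are mean ± SD of 3 libraries. The lumbar/sacral libraries lie between 6.44 and 8.31% of interneurons, below the other 6.

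The levels of I5 were then tested between regions. Per the paper, each separately barcoded region was corrected by itself and the regions were integrated before the clusters were drawn, so region had entered the clustering. Median corrected totals still differed between libraries of a region, at 7087, 16127 and 10256 in cervical replicates 1, 2 and 3. The part of correction or integration in a difference between regions was not tested. In lumbar/sacral I5 against the cervical and thoracic libraries, 3 of 10483 genes passed (0.0286%; limma with trend on log2(CPM + 5), adjusted p under 0.05 after Benjamini-Hochberg), 2 (0.0191%) higher and 1 (0.00954%) lower, and 431 had an unadjusted p under 0.05. *Car8*, which encodes a carbonic anhydrase-related protein that binds the IP3 receptor, was at 8.35, 9.88 and 7.61 CPM in the cervical libraries, 17.1, 9.15 and 10.2 CPM in the thoracic and 60.8, 65.7 and 79.5 CPM in the lumbar/sacral. It lies at chr4:8143362-8239041 on the minus strand (GRCm38). All lumbar/sacral libraries were above all others, and the difference was 2.28 ± 0.26 (log2, ± SE, limma adjusted p = 0.0112). In I6 the gene was at 0 to 2.35 CPM in the cervical and thoracic libraries and at 11.7, 5.03 and 3.28 CPM in the lumbar/sacral, and in I1 to I4 it did not exceed 1.94 CPM.

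*Gm765*, a predicted protein-coding gene at chr6:98235708-98342754 on the minus strand, followed the same order in I5. It was at 1.90 to 9.15 CPM in the 6 cervical and thoracic libraries and at 101, 46.5 and 55.1 CPM in the lumbar/sacral, a difference of 2.63 ± 0.34 (limma adjusted p = 0.0162). I6 reached 10.1 CPM in 1 lumbar/sacral library and I1 to I4 at most 2.30 CPM. Both *Gm765* and *Car8* met the filter of 10 CPM in 3 sums only through their lumbar/sacral libraries, and elsewhere they lay near or below it. With at least 10 corrected counts required in every sum, 0 genes were called higher and 1 lower. With no filter on low values 2 were called higher and 1 lower. *Col8a1*, a short-chain collagen gene at chr16:57624258-57754737 on the minus strand, was lower toward the tail, at 384, 356 and 393 CPM in the cervical libraries, 302, 274 and 250.3 CPM in the thoracic and 165, 139.5 and 113 CPM in the lumbar/sacral. The groups did not overlap, and the difference was -1.20 ± 0.15 (limma adjusted p = 0.0162). I6 showed 265 to 543 CPM and 143 to 161 CPM, respectively, and I1 to I4 48.4 to 76.0 CPM in all regions.

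With the replicate as a block, which fits the shared mice, 12 genes passed, 10 higher and 2 lower in lumbar/sacral I5, and these included the 3 above. The other 9 were *Gm12649*, *Kcnip1*, *Fbn2*, *Hoxc5*, *Ntm*, *Afap1l2*, *Gpc5* and 2 predicted genes, named here because so few passed. *Kcnip1*, a channel-interacting protein gene, was at 415 to 781 CPM in the cervical and thoracic libraries and at 304, 304 and 236 CPM in the lumbar/sacral, with adjusted p = 0.0154 with the block and 0.111 without (limma). *Fbn2*, which encodes a fibrillin, differed by 1.71 with adjusted p = 0.0200 and 0.268 (limma). Without the 2 libraries that go against their labels none passed in the fit without the block, and the differences of *Car8*, *Gm765* and *Col8a1* were 2.25, 2.73 and -1.22, with adjusted p (limma) of 0.0553, 0.0561 and 0.0661. None passed either when any 1 lumbar/sacral library was left out. The summed skeletal MN markers in I5 were also lower in the lumbar/sacral libraries, at 483 to 579 CPM against 621 to 769.9 CPM, as were those of ependymal and CSF-contacting cells, at 0 to 8.69 against 9.55 to 36.6 CPM, and their part in these differences was not tested. Within the libraries of high *Malat1* (3 cervical or thoracic, 2 lumbar/sacral) those differences were 2.39, 2.19 and -1.18, and within those of low *Malat1* (3 and 1) they were 2.09, 3.38 and -1.09.

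None of the gene lists had a member that passed in lumbar/sacral I5 without the block, and *Hoxc5*, *Kcnip1* and *Fbn2* were the list members that passed with it. The median difference of 8 Hox genes of paralogs 1 to 9 was 0.57 against 0.06 over all genes. *Hoxc5* was at 10.7, 16.5 and 3.04 CPM in the cervical libraries of I5, 15.2, 5.08 and 10.2 CPM in the thoracic and 89.8, 43.8 and 45.9 CPM in the lumbar/sacral, a difference of 2.11 ± 0.38 (limma adjusted p = 0.235 without and 0.0333 with the block). I5 was low in all 6 cervical and thoracic libraries, which was not so in I6 or in I1 to I4. I6 had 77.5 CPM in the library labelled cervical replicate 2 and 88.6 and 65.8 CPM in thoracic replicates 1 and 3, where I5 had 16.5, 15.2 and 10.2 CPM, and I1 to I4 had 49.0, 54.4 and 50.2 CPM in them. *Hoxa9* was at 0 to 5.69 CPM in those 6 libraries of I5 and at 14.5, 16.4 and 21.4 CPM in the lumbar/sacral, whereas in I1 to I4 it also stood at 29.6, 18.5 and 25.3 CPM in the 3 libraries just named. *Hoxd11* was at 0 in all 6 cervical and thoracic libraries of I5 and at 2.90, 21.9 and 9.18 CPM in the lumbar/sacral. Neighbouring Hox genes overlap, and reads of one may be counted for another.

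Between cervical and thoracic I5, 0 of 10483 genes passed (0%; limma), with 318 at an unadjusted p under 0.05. The genes of lowest p were *Rnf10* at -0.90 ± 0.23, *Peli2* at 1.29 ± 0.35 and *Tcf3* at -1.09 ± 0.30, with an adjusted p (limma) of 0.978 each. Without the 2 libraries that go against their labels 1 gene passed, and it was *Npsr1*. This gene was at 345, 13.2 and 443 CPM in the libraries labelled cervical and at 32.2, 323 and 18.3 CPM in those labelled thoracic, so that the 2 libraries of replicate 2 lay with the other label. Lumbar/sacral I5 had 394, 186 and 339.6 CPM. Leaving both out, the difference was 3.75 ± 0.35 (limma adjusted p = 0.00465, 2 libraries against 2), and with all libraries it was 1.11 (adjusted p = 0.978). In I1 to I4 the gene was at 52.9 to 122 CPM and in I6 at 0 to 5.33 CPM in every region. *Npsr1* lies at chr9:24097996-24316398 on the plus strand and was chosen here after its values were seen.

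**Figure D4:**
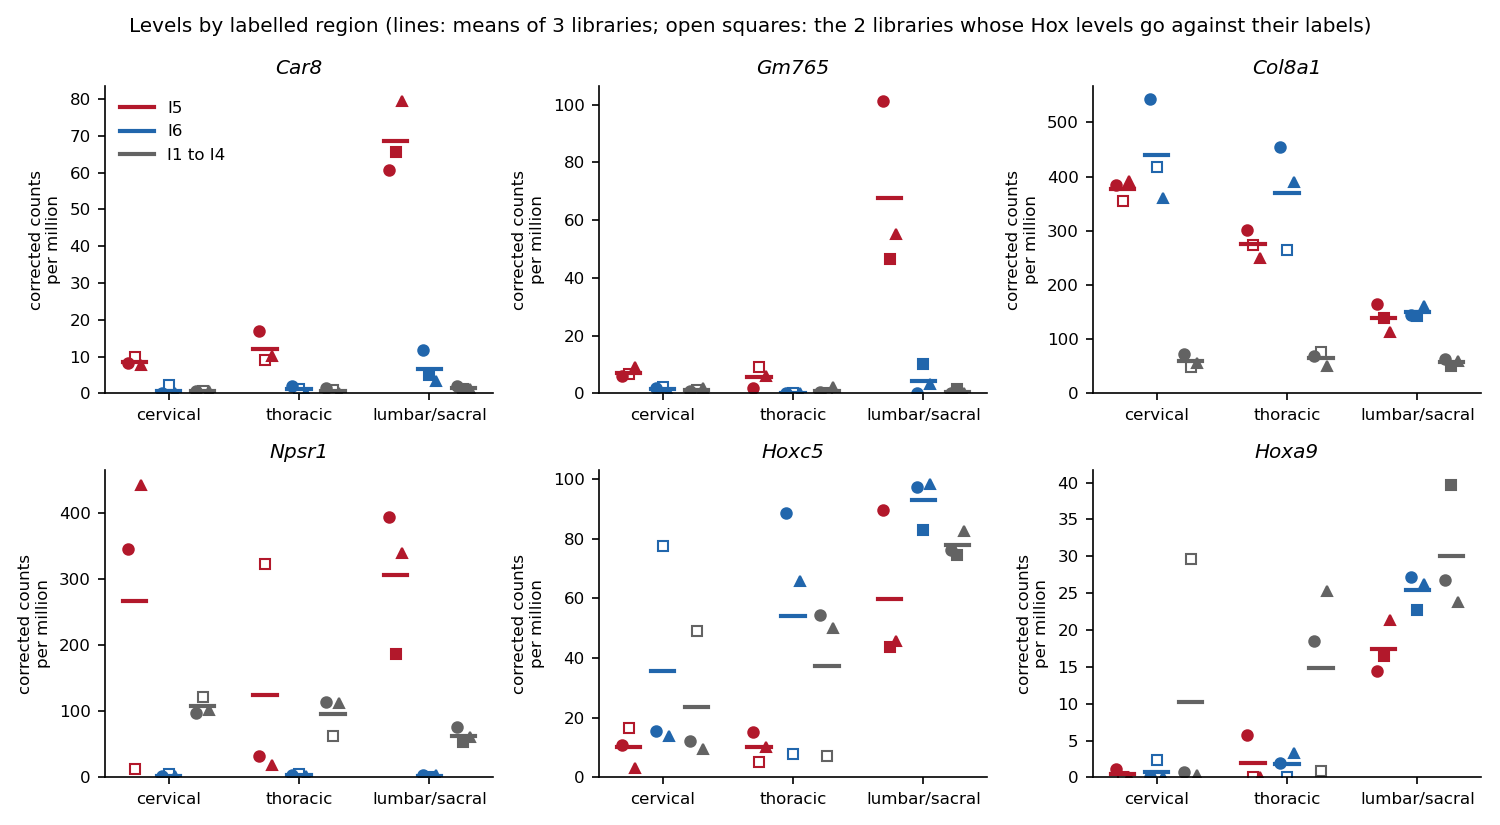
Levels of *Car8*, *Gm765*, *Col8a1*, *Npsr1*, *Hoxc5* and *Hoxa9* in CPM of corrected counts by labelled region, in I5 (red), I6 (blue) and I1 to I4 (grey); each point is 1 library, the shape gives the replicate, the line is the mean of 3 libraries, and open squares mark the 2 libraries whose Hox levels go against their labels. *Car8* and *Gm765* are high in lumbar/sacral I5, and the open squares of *Npsr1* in I5 lie with the other label.

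The region difference of I5 was then tested against that of I6, as the within-library difference between the clusters. It differed for 136 of 11329 genes (1.2%; limma), 37 (0.327%) with a higher and 99 (0.874%) with a lower value in I5 relative to I6 in the lumbar/sacral libraries. For 113 of the 136 the region difference was larger in I6 than in I5, and its median size was 1.16 on the log2 scale in I6 and 0.35 in I5. A region difference of at least 1 was found in I5 for 9 of the 136 and in I6 for 82. The regional levels of I5 thus lay closer together than those of I6 for most of the genes called.

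*Kcnip4*, a modulator of A-type potassium channels, had the lowest p. In I5 it was at 603, 188 and 663 CPM in the cervical libraries, 449.6, 446 and 309 CPM in the thoracic and 539, 205 and 299.8 CPM in the lumbar/sacral. I6 had 119.8 to 768 CPM in the cervical and thoracic libraries and 2741, 1576 and 2153 CPM in the lumbar/sacral. The region difference of I5 was below that of I6 by 2.84 ± 0.18 (limma adjusted p = 2.44e-11). *Cacna1e*, the R-type calcium channel, had 72.4 to 216 CPM in I5 in all libraries, while I6 went from 21.7 to 38.6 CPM in the cervical and thoracic libraries to 358, 224 and 164 CPM in the lumbar/sacral (-3.27 ± 0.30, limma adjusted p = 5.11e-08). *Cntnap5c*, a contactin-associated protein gene, was at 204 to 754 CPM in I5, while I6 had 15.2 to 79.8 CPM in the cervical and thoracic libraries and 428, 319.7 and 370.3 CPM in the lumbar/sacral (-3.10 ± 0.30, limma adjusted p = 1.00e-07). *Kcnh5* at -2.62 ± 0.27, *Pdzrn4* at -2.30 ± 0.21, the netrin receptor gene *Dcc* at -1.87 ± 0.21 and *Il1rapl1* at -1.18 ± 0.15 were the other named genes of this direction, and they all passed.

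*Chrm3* and *Tox*, which were high in I5 along the whole cord, had regional levels in I6. *Chrm3* in I6 was at 10.1 to 55.9 CPM in the cervical and thoracic libraries and at 144, 111 and 118 CPM in the lumbar/sacral, and the region difference of I5 was lower by 2.17 ± 0.25 (limma adjusted p = 2.87e-06). *Tox* in I6 went from between 3.38 and 41.9 CPM to 81.8, 52.9 and 55.7 CPM, a difference of -1.80 ± 0.33 (limma adjusted p = 0.00234). In the lumbar/sacral libraries I5 was above I6 for both genes. Both genes were also among those counted as different between the clusters, which already required all 9 libraries to go the same way. *Chrm3* is named here for its low p in this contrast of regions, and *Tox* as a listed gene that passed it.

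In the other direction, *Ror1*, a receptor tyrosine kinase-like gene of the Wnt pathway, was at 229 to 563 CPM in I5 in all regions. In I6 it was at 55.1 to 158 CPM in the cervical and thoracic libraries and at 7.79, 22.7 and 6.55 CPM in the lumbar/sacral, so the region difference of I5 was higher by 2.36 ± 0.26 (limma adjusted p = 1.38e-06). *Slc5a7* was at 333 to 500.4 CPM in I5, while I6 had 391 to 567 CPM in the cervical and thoracic libraries and 206, 259 and 243 CPM in the lumbar/sacral (0.88 ± 0.15, limma adjusted p = 0.000968). *Syndig1* at 1.43 ± 0.17, *Sgcd* at 0.84 ± 0.11, *Cdh13* at 1.11 ± 0.16, *Enox1* at 0.99 ± 0.19 and *Ephb1* at 0.97 ± 0.16 (limma adjusted p = 0.000739 for *Ephb1*) were the other named genes of that direction. *Chat*, which did not pass, was in I6 at 164 to 242 CPM in the lumbar/sacral libraries and at 293 to 373 CPM elsewhere. With the replicate block 121 genes passed, of which 118 were among the 136, and without the 2 libraries that go against their labels 150 passed, of which 114 were. Leaving out lumbar/sacral replicate 1, 2 or 3 left 77, 81 or 84.

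**Figure D5:**
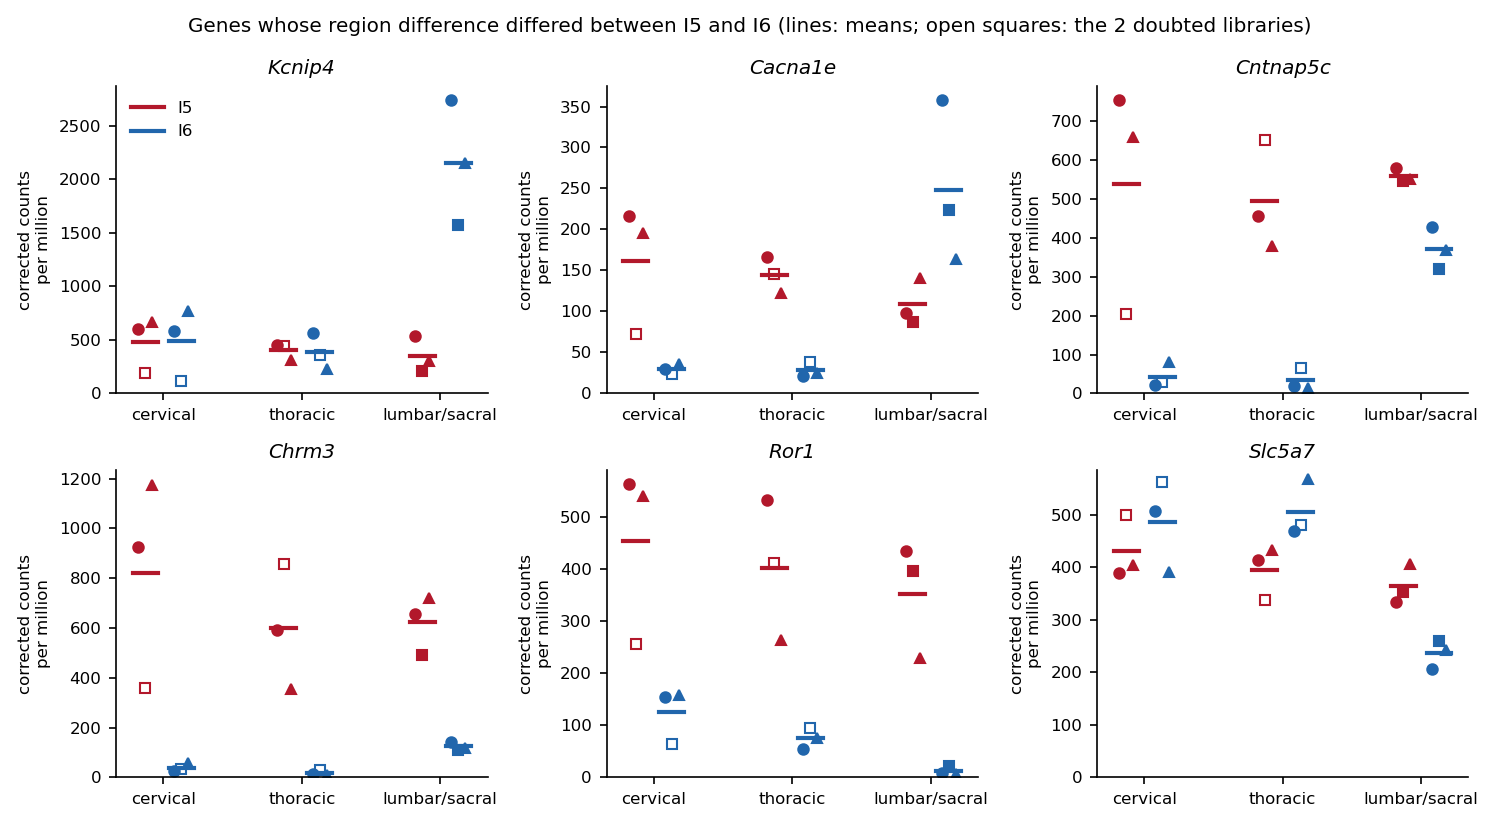
Levels of *Kcnip4*, *Cacna1e*, *Cntnap5c*, *Chrm3*, *Ror1* and *Slc5a7* in CPM of corrected counts by labelled region in I5 (red) and I6 (blue); points are libraries, the shape gives the replicate and the line is the mean of 3 libraries. Open squares mark the 2 libraries whose Hox levels go against their labels. In each panel the lumbar/sacral I6 libraries lie apart from the other I6 libraries, while the regions of I5 overlap.

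Channel genes were among those called, where the share over all 11329 genes was 1.2% (0.327% higher, 0.874% lower). Of 33 potassium channel genes 3 passed (*Kcnip4*, *Kcnh5* and *Kcnq3*), all lower, with a list median of -0.21 against 0.01 over all genes, and of 20 sodium, calcium and HCN channel genes 3 passed (*Cacna1e*, *Cacna1g* and *Cacna2d3*), also lower. Of 6 metabotropic glutamate receptor genes *Grm7* and *Grm8* passed, and of 29 axon guidance genes 5 passed, *Epha5* and *Ephb1* higher and *Dcc*, *Robo1* and *Epha4* lower. Of 8 cholinergic genes 1 passed, *Slc5a7*.

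Against I1 to I4 the same test found 34 of 11069 genes (0.307%; limma), 14 (0.126%) higher and 20 (0.181%) lower in lumbar/sacral I5 relative to those neighbours. The count moved from 4 without lumbar/sacral replicate 3 to 61 without cervical replicate 2, was 103 without both libraries that go against their labels (33 of the 34 among them), and was 2 with no filter on low values. In the fit of all libraries I5 carried the larger region difference in 26 of the 34, with a median size of 0.77 in I5 and 0.22 in I1 to I4. *Gm765* at 2.79 ± 0.37 (limma adjusted p = 0.00193), *Car8* at 2.10 ± 0.31 (0.00564) and *Col8a1* at -1.11 ± 0.17 (0.00853) were among them. *Kcnip1* was lower by 1.23 ± 0.14 (limma adjusted p = 0.000650), with I1 to I4 at 194 to 261 CPM throughout. *Meis1*, a homeobox gene whose protein pairs with Hox proteins, was at 158 to 418 CPM in the cervical and thoracic libraries of I5 and at 127, 76.6 and 113 CPM in the lumbar/sacral, where I6 likewise was lower, at 97.3, 40.3 and 65.5 CPM against 169 to 319 CPM, while I1 to I4 had 175 to 384 CPM in all regions (-1.26 ± 0.16, limma adjusted p = 0.00146). *Gpr149* at 1.22 ± 0.20, *Plekha7* at 1.30 ± 0.23, *Mgat4c* at 1.06 ± 0.19 and *Hpse2* at 1.76 ± 0.33 were relatively higher in lumbar/sacral I5. *Tmem163*, at -1.94 ± 0.31, *Parm1*, at -1.08 ± 0.18, *Tnr*, at -0.98 ± 0.17, and *Mast4*, at -0.82 ± 0.14, were relatively lower.

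For *Plcl1* and *Sorcs3* the larger region difference was that of I1 to I4. *Plcl1*, which has the lowest p of this comparison (1.48 ± 0.14, limma adjusted p = 8.45e-05), was at 187 to 385 CPM in I5 in all regions and in I1 to I4 at 191 to 333 CPM in the cervical and thoracic libraries and 122, 88.7 and 124 CPM in the lumbar/sacral. *Sorcs3*, a sortilin-related receptor, was at 678 to 1313 CPM in I5 and in I1 to I4 at 173 to 287 CPM and at 449, 333 and 359 CPM in the same order (-1.08 ± 0.14, limma adjusted p = 0.00146).

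Between I5 of the male pool and of the female pool, with a term for region, 5 of 10076 genes passed (0.0496%; limma), 4 (0.0397%) higher and 1 (0.00992%) lower in the male pool, and 521 had an unadjusted p under 0.05. They were the Y-linked *Eif2s3y*, *Uty* and *Kdm5d*, higher in the male pool by 4.55 ± 0.33, 4.58 ± 0.35 and 3.46 ± 0.38, the X-inactivation RNA *Xist*, lower by 5.42 ± 0.33 on the log2 scale, and *Gm13912*. *Gm13912* was at 405, 388 and 304 CPM in the 3 male libraries, at 132, 116 and 110.2 CPM in the 3 female libraries and at 354, 438 and 249 CPM in the mixed pool (1.57 ± 0.17, limma adjusted p = 0.0462). The male and female values did not overlap. Each sex is 1 pool of mice, so sex and pool cannot be told apart, and the p-values measure the spread between regional libraries of 1 pool each. Of the 3 male libraries 2 are those whose Hox levels go against their region labels, and region is a term of the fit. Without cervical replicate 2 the count was 114 (9 higher, 105 lower), of which 2 were among the 5, without cervical replicate 3 it was 136, without thoracic or lumbar/sacral replicate 2 it was 1 and without lumbar/sacral replicate 3 it was 0. Leaving out both doubted libraries left no residual degrees of freedom.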

How the data were processed

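Per the labels and the methods of the study, the authors used Cell Ranger 3.1.0 and GRCm38 (mm10) gene models that include introns, and removed outlying nuclei by genes and mitochondrial share. By their account they corrected the counts with SCTransform in Seurat for each separately barcoded region and integrated the regions before clustering. Corrected totals were close together within a library (SD of 5.85 to 10.7% of the mean) but not between the libraries of a region. The deposited values are whole-number scores, model-corrected counts and not raw reads, so tests on raw counts were not used and the sequencing depth behind them is unknown. The correction brings the totals of nuclei closer together and can change small differences. The authors' cluster labels were taken as deposited, and all 584 I5 nuclei were kept. The members and the gene lists were chosen with earlier results of these data known.

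Corrected counts were summed per library and cluster and scaled to 1000000 (CPM). Clusters were compared within libraries with at least 10 nuclei of both, without a test. A gene was counted at a mean difference of at least 1 (log2(CPM + 5)) with every library in the same direction. Regions and pools were tested with limma 3.58.1 in R 4.3.3 on genes that reached 10 CPM in 3 or more sums, with Benjamini-Hochberg adjustment over all genes and a threshold of 0.05. Shares were compared across the 3 regions with exact permutation tests of the between-region sum of squares (scipy 1.17.1, Python 3.11.15). Gene positions are those of GENCODE vM21 on GRCm38. The scripts were tested on simulated data.

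The text could name any gene of the lists, the 12 genes of largest difference in each direction with at least 50 CPM in the higher cluster, the 8 called genes of lowest p in each direction of a test (the 3 of lowest p where none was called), and predicted genes only among the first 4. Genes outside these were chosen after their values were seen. Some genes that these rules include are not reported here. For variation between nuclei, each was thinned to 3200 corrected counts and genes with a mean of at least 0.2 were kept. Doublets were kept in the main results: Scrublet (scanpy 1.11.5) called 164 of 16042 nuclei, 4 of them in I5. Same-numbered libraries come from the same mice, so the replicate block applies. Deviations of same-numbered I5 libraries from their region means correlated with r of -0.195 to 0.606 (9 pairs, median 0.331), and those of different numbers with r of -0.525 to 0.462 (18 pairs, median -0.201). Alternatives were another scaling, pseudocounts of 1 and 20, other filters, at least 20 nuclei, no doublets, thinning, the replicate block, leaving out each library and, added after seeing the data, leaving out both libraries whose Hox levels go against their labels.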

Additional observations from a re-analysis of the deposited data

Results flagged for a closer look

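The within-library difference of *Pax2* between I5 and I6 in lumbar/sacral replicate 2 stood apart from the other 8 libraries. Its gap to the nearest of them was 0.504 of the whole range, above Dixon's 95% critical value of 0.493 for 9 libraries. This was 1 of 8 genes so examined, and chance flags about 1 in 20 groups. The region difference of I5 differed from that of I6 for 136 genes, and from that of I1 to I4 for 34 genes, by limma on the within-library difference. The genes of lowest p in these comparisons were *Kcnip4* and *Plcl1*, whose values are given above.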

How the results depend on the processing

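The labels of 2 male-pool libraries go against their Hox levels, and each region has 3 libraries from 3 pools. I5 had 19 nuclei in 1 library, so low genes there rest on few counts. SCTransform-corrected values hide the sequencing depth, and genes under 10 CPM were not tested.

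For the I5 share of cholinergic nuclei by region, the difference without both libraries against their labels was -0.896 points (unadjusted p = 0.0286, exact permutation across the 3 regions). For the I5 share of interneuron nuclei the difference was -6.36 points, and the exact permutation test across the 3 regions gave p = 0.111 within replicates, the replicate block. For the I5 share of I5 and I6 nuclei the difference turned to -0.941 points without both libraries, and ran from -2.43 points without lumbar/sacral replicate 1 to 2.37 points without lumbar/sacral replicate 2, with -2.34 without cervical replicate 2 and -1.26 without thoracic replicate 3.

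For I5 in the lumbar/sacral against cervical and thoracic libraries, the 3 genes called became 1 (0 higher, 1 lower) with at least 10 corrected counts in every sum. The count was 12 with the replicate block and 0 without both libraries. It ran from 0 (without any 1 lumbar/sacral library) to 4 (without thoracic replicate 1 or 3), with 1 without cervical replicate 1 or 3. For I5 cervical against thoracic, 1 gene was called without both. For I5 minus I6 by region, 84 genes were called with a pseudocount of 1, 42 with no filter, 90 with at least 10 corrected counts in every sum, and 77 (without lumbar/sacral replicate 1) to 138 (without cervical replicate 2), with 81 and 84 without lumbar/sacral replicate 2 and 3. For I5 minus I1 to I4 by region, 19 were called with a pseudocount of 1, 2 with no filter, 61 with at least 20 nuclei (which drops cervical replicate 2), 103 without both libraries, and 4 (without lumbar/sacral replicate 3) to 61 (without cervical replicate 2), with 9 and 6 without lumbar/sacral replicate 1 and 2, and 16 and 20 without thoracic replicate 1 and 3.

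For I5 of the male pool against the female pool, 3 genes were called with a pseudocount of 1, 0 with at least 10 corrected counts in every sum, 114 with at least 20 nuclei, 3 without doublet calls, and 0 (without lumbar/sacral replicate 3) to 136 (without cervical replicate 3), with 114 without cervical replicate 2 and 1 without thoracic or lumbar/sacral replicate 2. That fit could not be tested without both libraries, which leaves no residual degrees of freedom. In the descriptions, a pseudocount of 20 left 250 genes for I5 against I6 and 581 for I5 against I1 to I4. Leaving out a library leaves fewer to fit, and no filter adds genes to the adjustment. The cause was not tested otherwise. The replicate block changed no other call count by over 1.5 times, with 121 genes for I5 minus I6 and 35 for I5 minus I1 to I4.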
